A study of Mus musculus with 8 samples.

Results

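Total RNA and polyA RNA were compared in control mouse Th1 cells, 4 of the 8 libraries of a study of the RNA-binding protein PCBP1. Th1 cells are the CD4 helper T cells that make interferon gamma. All cells were C57BL/6 T cells cultured on plates coated with antibodies to CD3 and CD28, in 2 ng/ml of IL-12 and 5 µg/ml of an antibody to IL-4. The total RNA came from 2 libraries of cells transduced with a scrambled short hairpin RNA, and ribosomal RNA had been depleted from it. The polyA RNA came from 2 libraries of cells treated with DMSO, the solvent of the iron chelator CPX. RNA selection, hairpin and solvent therefore changed together, and their parts in any difference cannot be told apart. The study's other 4 libraries carried a hairpin against Pcbp1 (total RNA) or CPX (polyA RNA), and served here as a second comparison that shares no library with the first. No source used here gives the CPX dose, the times or the number of animals, so p-values measure the spread between these libraries only, which may be technical.

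Most mRNAs end in a polyA tail, which oligo-dT selection captures. Replication-dependent histone mRNAs end instead in a conserved stem-loop, and many small structured RNAs, such as the spliceosomal snRNAs, snoRNAs and 7SK, carry no polyA tail. Depletion of ribosomal RNA keeps such RNAs in a library, whereas polyA selection removes most of them. Processed pseudogenes, copies of mRNAs inserted into the genome, can be so like their parent gene that short reads match both.

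The scrambled-hairpin libraries held 14174293 and 14321096 reads in genes. The DMSO libraries held 19662145 and 19547221 units of a rescaled table, each unit worth about 1.97 reads. Levels are given as RPM, a gene's value after every library was scaled to the same total. A difference is total RNA minus polyA RNA on the log2(RPM + 0.5) scale with its standard error (SE), which understates the change of low genes, and a gene was called at a limma adjusted p under 0.05. A gene was tested if it reached 1 RPM in 2 or more of the 4 libraries. It could thus enter through 1 group alone, and could then not lie lower in that group. Of 11544 genes tested, 68.9% were called, 26.3% higher and 42.6% lower in total RNA, and the median difference was -0.28. The groups of 2 did not overlap for 84.7% of the tested genes, so separation alone carries little information here. The mitochondrial ribosomal RNA mt-Rnr2 took 17.58% and 17.64% of the total RNA libraries. With mitochondrial RNAs taken out of the totals the median became 0.02 and the split turned to 3942 higher and 3763 lower, with TMM scaling, which trims extreme genes, to 3806 and 3950, and with quantile normalization to 3865 and 3912, against 3035 and 4914 here. Testing every gene with no filter on low values gave 4704 higher and 4539 lower. Leaving out 1 scrambled library left 1747 higher and 2923 lower (without replicate 1) or 1793 and 2954 (without replicate 2). A difference between about -0.3 and 0 thus changes sign with the scaling.

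Both groups expressed T cell identity genes, and their sex-linked genes disagreed. All 12 T cell identity genes were detected, with Cd3e, a chain of the T cell receptor complex, at 39 and 43 RPM in total RNA and 132 and 184 in polyA RNA. Xist, the noncoding RNA that silences an X chromosome in female cells, stood at 326 and 290 RPM in total RNA and at 4.88 and 2.46 in polyA RNA. Ddx3y, a Y-linked RNA helicase, stood at 0.0706 and 0.279 against 139 and 109 RPM. The other 3 tested Y-linked genes, Eif2s3y, Kdm5d and Uty, were at 0 in both total RNA libraries and at 56.8 and 43.4, 26 and 20.4, and 9.87 and 7.26 in polyA RNA. The treated libraries split the same way, with Xist at 272 and 251 under the Pcbp1 hairpin and 3.28 and 2.29 under CPX, and Ddx3y at 0 and 0 against 117 and 140. The labels give no sex. The total and polyA libraries thus differ in sex-linked RNA as well as in RNA selection, and the part of this in other differences was not tested. Pcbp1 itself, the hairpin's target, was at 44 and 51.7 RPM with the scrambled hairpin and at 15.1 and 16.1 with its own.

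Replication-dependent histone mRNAs encode proteins that package newly made DNA, and were among the classes that moved most uniformly. Of 70 such genes listed by name, 56 were tested and all 56 were called higher in total RNA, where 26.3% of all tested genes were. The median difference was 4.03, with a range from 0.99 to 7.83. The 56 include the pseudogene Hist3h2bb-ps, with a difference of 2.49. The class summed to 2605 and 2376 RPM in total RNA and to 28.6 and 47.8 in polyA RNA. No tested member passed 4.81 RPM in a polyA library, and 42 stayed under 1 RPM in both. These 42 passed the filter of 1 RPM through total RNA alone, so their direction was fixed in advance. The stem-loops of 5 of the most abundant members are shown 5′ to 3′, as DNA, with the loop and both arms of the stem in capitals, because this end replaces the polyA tail.
Hist1h1c: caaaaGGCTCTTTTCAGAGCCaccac
Hist1h1e: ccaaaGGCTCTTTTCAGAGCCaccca
Hist1h4d: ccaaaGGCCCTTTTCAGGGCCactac
Hist1h4c: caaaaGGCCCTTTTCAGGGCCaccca
Hist1h4f: tcaaaGGCCCTTTTCAGGGCCaccca
They lie on GRCm38 at chr13:23739507-23739532 (+), chr13:23621777-23621802 (-), chr13:23581945-23581970 (+), chr13:23698084-23698109 (-) and chr13:23551286-23551311 (-), each in the 3′ UTR. The counts themselves were made on mm9, and gene models were matched by name only.

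A search of the first 150 bases after the stop codon, on the transcribed strand, for the stem-loop (GG, 2 bases, CTTTT, 1 base, AG, 2 bases that pair with the first 2, CC) found it in 37 of 43 tested histone genes whose gene model runs at least 30 bases past the stop. The same search found it in 1 of 10056 other tested coding genes with such a window, 0.00994%, and that gene was H2afx, which encodes the variant H2A.X. The 37 stem-loops began 21 to 54 bases after the stop, and 20 of them read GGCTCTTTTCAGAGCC. The 37 genes had a median difference of 4.71, the 6 genes without a match 3.58 and the 13 without a usable window 3.12. A missing match says only that these letters are not in the annotated window.

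The linker histone genes had the highest median of the class. Hist1h1c, a linker histone H1 gene, was at 345 and 329 RPM in total RNA and at 0.763 and 1.23 in polyA RNA, a difference of 7.83 (SE 0.19, adjusted p = 3.36e-05). Hist1h1e was at 149 and 146 against 0.305 and 0.716 RPM. Hist1h1d and Hist1h1b lay at 144 and 117 and at 108 and 73.3 RPM in total RNA, and all 4 polyA values were under 0.6. The 5 tested H1 genes had a median of 7.23 and the 13 H4 genes 5.62. It was 4.03 for the 16 H2B genes, Hist3h2bb-ps among them, 3.30 for the 11 H3 genes and 2.97 for the 11 H2A genes. Hist1h4d, an H4 gene, was at 263 and 247 RPM in total RNA and 1.47 and 2.97 in polyA RNA (difference 6.61, SE 0.28, adjusted p = 7.08e-05). Hist2h2bb, an H2B gene, reached 159 and 109 against 0.153 and 0.102 RPM, and its exons are wholly overlapped by a gene on the other strand, so its reads cannot be assigned without strand.

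Histone variants known for polyadenylated mRNAs did the reverse. Of 9 tested, 7 were called lower in total RNA and 0 higher, where 42.6% and 26.3% of all tested genes were. Their median was -1.26. Among the 9 is H2afx with its stem-loop (-0.62, a call lost with TMM scaling at -0.34). H3f3a, which encodes histone H3.3, stood at 13.5 and 12.4 RPM in total RNA and 235 and 247 in polyA RNA, a difference of -4.17 (SE 0.09, adjusted p = 3.21e-05). H2afz, which encodes H2A.Z, was at 31.5 and 22.6 against 180 and 253 RPM. H3f3b, a second H3.3 gene, differed by -2.66 in control cells and by 0.05 between the treated libraries (adjusted p = 0.843). The last 30 bases of H3f3a and H2afz are printed with the polyA signal AATAAA in capitals, to set them beside the stem-loops. The transcripts were picked because they hold AATAAA there, so its presence is no result. The same search gave no such transcript for H3f3b or for the reference gene Actb.
H3f3a: tgaaaaatAATAAAagtaccaatagaagaa
H2afz: ggtggataagctcAATAAAggtcatatccc
They lie on GRCm38 at chr1:180800832-180800861 (-) and chr3:137866789-137866818 (+), in the 3′ UTR. H3f3a has 36 processed pseudogenes similar to it, and with these added its difference was -3.03, while that of H2afz moved from -2.98 to -1.45. Among 10 genes of histone mRNA processing, 2 were called higher and 4 lower, beside 26.3% and 42.6% of all tested genes. Slbp, which encodes the stem-loop binding protein, was at 91.9 and 92.4 RPM against 70.6 and 77 (difference 0.32, adjusted p = 0.0216), and Sympk, a cleavage scaffold, at 48.6 and 57.6 against 198 and 223.

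**Figure D1:**
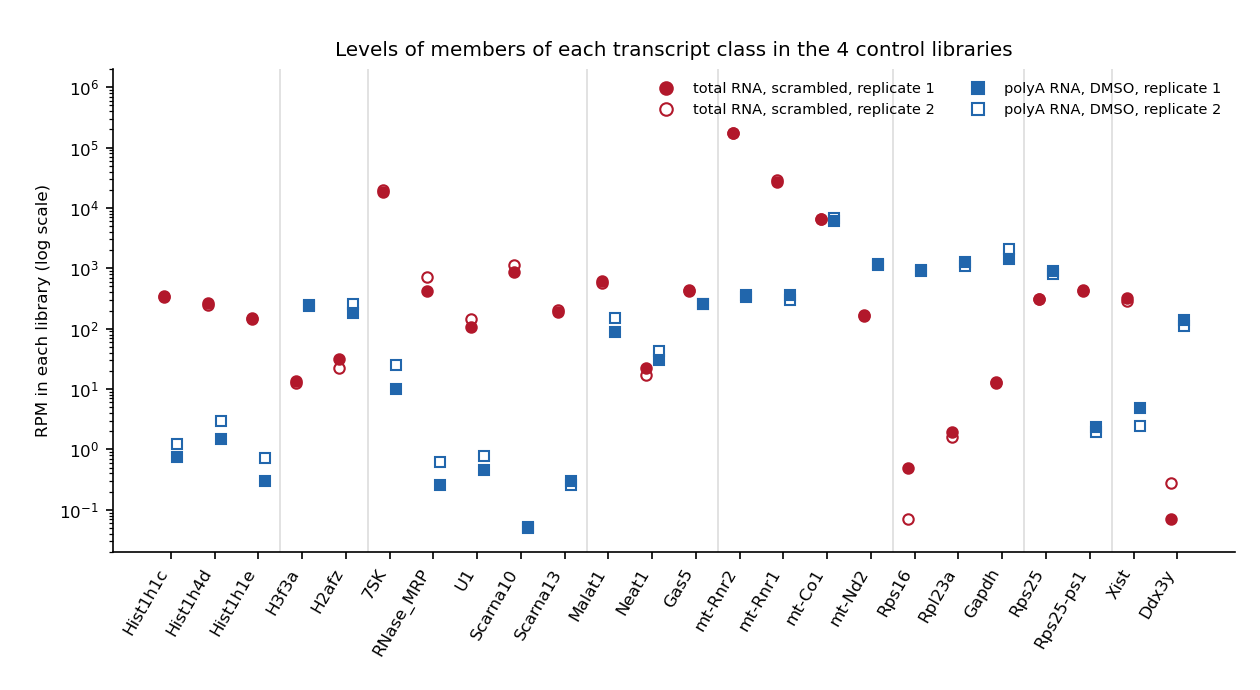
Level of 24 RNAs in each of the 4 control libraries, in RPM on a log axis, with circles for total RNA (scrambled hairpin) and squares for polyA RNA (DMSO), filled for replicate 1 and open for replicate 2. The histones Hist1h1c, Hist1h4d and Hist1h1e lie above 100 RPM in total RNA and under 3 in polyA RNA, while H3f3a and H2afz are higher in polyA RNA.

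The snRNAs and other structured RNAs outside the snoRNA classes were higher in total RNA. All 15 tested of 20 listed snRNAs and other structured RNAs were called higher (26.3% of all tested genes were), with a median of 3.31 and a range from 1.49 to 10.16. Rows named for a family, such as 7SK and U1, may sum several genomic copies. Members under 1 RPM in both polyA libraries, U1 among them, passed the filter through total RNA alone, which fixed their direction in advance. The RNA named 7SK, which holds the elongation factor P-TEFb inactive, reached 18404 and 19457 RPM in total RNA and 10.1 and 25.4 in polyA RNA, a difference of 10.16 (SE 0.42, adjusted p = 6.61e-05). RNase_MRP, the RNA of a ribonuclease that cuts ribosomal RNA precursors, was at 420 and 729 against 0.254 and 0.614 RPM. The 3′ ends of the annotated mouse genes for these RNAs are printed because neither carries the AATAAA signal in these 30 bases.
7SK: ggcgctgcatgtggcagtctgcctttcttt
RNase_MRP: caaccacacggggctcattctcagcgcggc
They lie on GRCm38 at chr9:78175303-78175332 (-) and chr4:43492788-43492817 (-), in the noncoding exon of each gene.

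The snRNAs of the major spliceosome followed. U1, which recognises the 5′ splice site, was at 107 and 146 RPM in total RNA and 0.458 and 0.767 in polyA RNA. U2, which pairs with the branch point, was at 47.9 and 74 against 0.102 and 0.102. U4 and U5 lay at 29.6 and 36.2 and at 20.6 and 36.3 RPM, with 0 or 1 to 2 units in each polyA library. U6 was nearest to equal, at 22.2 and 23 against 4.42 and 5.42 RPM (difference 2.09, SE 0.18). The minor spliceosome's U11, U12, U4atac and U6atac were at 2.12 to 7.54 RPM in total RNA and at most 0.0512 in polyA RNA. The telomerase RNA row, Telomerase-vert, was at 4.02 and 4.4 against 0.102 and 0.0512 RPM.

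Among snoRNAs and scaRNAs, which guide chemical modification of ribosomal and spliceosomal RNA, 96 of 108 tested were called higher and 1 lower. Over all tested genes 26.3% and 42.6% were, and the class median was 1.93. Of 261 members with values only these 108 passed the filter of 1 RPM. Members such as Scarna10 did so through total RNA alone, so their direction was fixed in advance. The count is therefore no even match for the share over all genes. Scarna10 was the highest, at 852 and 1121 RPM in total RNA and 1 unit (0.0509 and 0.0512 RPM) in each polyA library. Scarna13 was at 192 and 201 against 0.305 and 0.256, Scarna2 at 127 and 127 against 0.254 and 0.307, and Snora74a at 192 and 283 against 0.509 and 0.716 RPM. The 1 lower member, Snora73b, was at 0 in both total RNA libraries and at 3.51 and 4.91 RPM in polyA RNA. It lies in its host gene Snhg3, which was also at 0 in both total RNA libraries and at 16.9 and 20.3 in polyA RNA.

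The spliced host transcripts of snoRNAs were also higher in total RNA. Of 12 tested, 10 were called higher and 2 lower, where 26.3% and 42.6% of all tested genes were. The median was 0.71, against 0.08 for the same genes in the treated libraries. Snhg1 was at 321 and 329 RPM against 104 and 102, a difference of 1.65 (SE 0.07, adjusted p = 7.33e-05). Gas5 was at 435 and 426 against 256 and 256 RPM, and Snhg7 at 39.2 and 37.7 against 9.76 and 9.92. The groups did not overlap for these 3 genes, nor for 84.7% of all tested genes. In the treated libraries Snhg1 was at 186 and 186 RPM against 226 and 311 (difference -0.51, adjusted p = 0.0845).

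Nuclear long noncoding RNAs did not move as 1 class. Of 10 tested, 5 were called higher, 2 lower and 3 not called, where 26.3% of all tested genes were called higher and 42.6% lower. The list includes Xist, described above with the sex-linked genes, which had its largest difference, 6.27. Malat1, a nuclear speckle RNA whose 3′ end is a triple helix in place of a polyA tail, was at 614 and 581 RPM against 87.6 and 152 (difference 2.37, SE 0.26, adjusted p = 0.00109). Neat1, the paraspeckle RNA, was lower, at 22.3 and 17.4 against 30.4 and 43.5 RPM (difference -0.87, adjusted p = 0.02), a call lost with mitochondrial RNAs out of the totals (-0.55), with TMM scaling (-0.60) and with quantile normalization (-0.39). Pvt1, a long noncoding RNA beside Myc, was at 69 and 64.9 against 26.4 and 26.9, and Mir17hg, the primary transcript of the miR-17 cluster, at 102 and 90.8 against 58 and 50.2. Among 9 tested microRNA genes, counted here as precursors in long RNA libraries, 6 were called higher and 1 lower. Mir155, at 187 and 152 against 121 and 106 RPM, was the most abundant. Over GENCODE's antisense and lincRNA genes, 118 of 200 tested were called higher and 30 lower, with a median of 0.98. Sense and antisense reads cannot be told apart unless the counting used strand, which no source used here states.

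**Figure D2:**
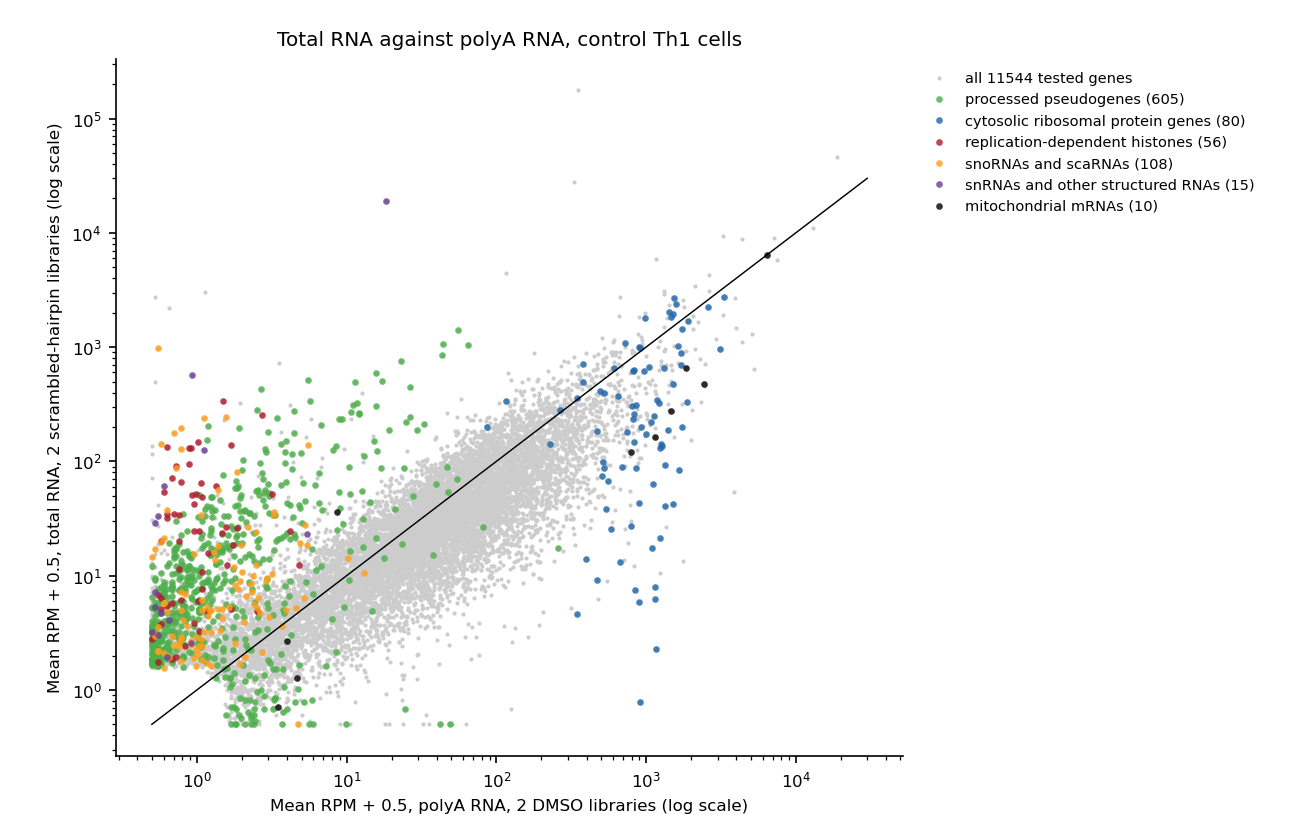
Mean level of each of 11544 tested genes in polyA RNA (x) and in total RNA (y), in RPM + 0.5 on log axes, with 6 transcript classes in colour and the line of equality. Histones, snoRNAs, structured RNAs and most processed pseudogenes lie above the line at low polyA levels, and most ribosomal protein genes lie below it.

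RNAs encoded by the mitochondrial genome split between ribosomal RNAs and mRNAs. The ribosomal RNA mt-Rnr2 was at 175811 and 176378 RPM in total RNA and 363 and 340 in polyA RNA, and mt-Rnr1 at 26861 and 28686 against 364 and 293. With the tRNAs these made up 20.3% and 20.5% of the total RNA libraries and 0.0729% and 0.0634% of the polyA libraries. Of 10 tested mitochondrial mRNAs, 8 were called lower in total RNA, where 42.6% of all tested genes were, and 1 higher, with a median of -2.08. The mRNA mt-Nd2 was at 160 and 169 RPM against 1164 and 1120 (difference -2.79, SE 0.08, adjusted p = 4.09e-05), mt-Cytb at 466 and 476 against 2313 and 2548, and mt-Nd1 at 639 and 671 against 1697 and 1981. The most abundant, mt-Co1, overlapped between groups at 6438 and 6436 against 5991 and 6906 RPM. The 1 higher mRNA, mt-Nd6, is the only one encoded on the light strand and lacks a long tail. It was at 36.6 and 34.1 RPM against 11.1 and 5.12 (difference 2.15, SE 0.36, adjusted p = 0.00446), a call lost without either scrambled library (adjusted p = 0.0958 and 0.088 in limma), and at 33.9 and 49.7 against 3.18 and 1.14 in the treated libraries.

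Several rows with little or no polyA signal were among the largest differences. Gm10800, a predicted gene, was at 1928 and 3556 RPM in total RNA and 0.0509 and 0 in polyA RNA. AY036118 was at 2775 and 1642 against 0.0509 and 0.256, and the clone-named AC027184.1 at 2420 and 3656 against 0.61 and 0.665 RPM. Gm10722 was at 84.4 and 146 RPM and at 0 in both polyA libraries, at least 753-fold higher against a floor of 3 units per library. The row of Lars2, the mitochondrial leucyl-tRNA synthetase, had more polyA signal, at 6841 and 2069 RPM against 95.4 and 135 (difference 5.05, SE 0.58, adjusted p = 0.00119). Its 2 total RNA libraries differed by more than 3-fold, as did those of the treated comparison (1754 and 8330 RPM). Of the 221 genes called more than 16-fold higher in total RNA, 111 were processed pseudogenes, 28 replication-dependent histones, 6 snoRNAs and 3 scaRNAs by GENCODE type. A further 30 matched no gene model, and 25 were protein coding. Tagap, a GTPase-activating protein of activated T cells, was the most abundant of these 25 after Lars2 and predicted genes, at 320 and 321 RPM against 1.63 and 1.23.

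Cytosolic ribosomal protein genes, whose mRNAs are short, abundant and polyadenylated, were mostly lower in total RNA. Of 80 tested, 60 were called lower and 9 higher, where 42.6% and 26.3% of all tested genes were. The median was -1.86, with a range from -10.24 to 1.57, and -2.63 in the treated libraries. They summed to 4.02% and 4.14% of the total RNA libraries and 8.81% and 7.94% of the polyA libraries. Rps16, a protein of the small subunit, was at 0.494 and 0.0698 RPM against 922 and 898 (difference -10.24, SE 0.28, adjusted p = 3.56e-05). Rpl23a, of the large subunit, was at 1.98 and 1.61 against 1258 and 1087, and Rps29 at 8.18 and 6.84 against 1157 and 1145 RPM. With the values of similar pseudogenes added, the difference of Rps16 was -7.28 and that of Rpl23a moved from -9.00 to -4.95. Members of the same ribosome were higher in the same libraries, with Rps3 at 2603 and 2790 RPM against 1593 and 1496 and Rpl39 at 693 and 734 against 390 and 368. Rps27l, a p53-induced relative of Rps27, was higher in both comparisons, by 1.57 and 2.16. Of the 9 higher members, 5 were called lower in total RNA in the treated libraries. Genes commonly used as references split as well. Gapdh was at 12.5 and 13.3 RPM against 1404 and 2101, Ppia at 28.8 and 23.3 against 1316 and 1407, and Actb at 3003 and 3196 against 2174 and 3074, with overlapping groups. With pseudogenes added the difference of Ppia moved from -5.69 to -4.74.

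Processed pseudogenes went the opposite way. Of 605 tested, 506 were called higher in total RNA and 63 lower, where 26.3% and 42.6% of all tested genes were. Their median was 2.57. All 4172 such genes with values summed to 23191 and 22370 RPM in total RNA and 2452 and 2196 in polyA RNA. Many of the 605 passed the filter of 1 RPM through total RNA alone, such as Apoo-ps at 5.71 and 4.75 against 0.153 and 0.102 RPM. The direction of those members was fixed in advance, so neither this count nor the pair counts below test the direction of the class. A processed pseudogene was paired with a parent coding gene where at least 200 bases and at least 50% of its length aligned at 90% identity or more. In 476 pairs with both members tested, 408 pseudogenes and 57 of the 383 parents were called higher, and 46 pseudogenes and 267 parents lower. The pairs' median identity was 98.5%. The first 120 coding bases of Rps25 and the matching stretch of its pseudogene Rps25-ps1 are printed to show how little tells them apart, with the 2 differing bases in capitals.
Rps25: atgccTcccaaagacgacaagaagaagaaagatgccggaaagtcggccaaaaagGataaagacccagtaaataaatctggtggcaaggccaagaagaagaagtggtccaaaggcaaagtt
Rps25-ps1: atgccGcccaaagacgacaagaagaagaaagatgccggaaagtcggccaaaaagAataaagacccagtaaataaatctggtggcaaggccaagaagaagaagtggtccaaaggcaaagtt
The gene lies on GRCm38 at chr9:44407139-44410427 (+), where the stretch is split between exons, and the pseudogene's stretch at chr6:145266400-145266519 (+) in an annotated processed pseudogene. Over 378 aligned bases the pair was 98.9% identical.

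By sign the pseudogene was higher in total RNA and the parent lower in 335 of the 476 pairs, with the same limit of the filter. Rps25-ps1 was at 436 and 422 RPM in total RNA and 2.39 and 1.94 in polyA RNA, a difference of 7.34 (SE 0.12, adjusted p = 3.1e-05), while Rps25 was at 310 and 314 against 903 and 805 RPM. Gm9843, a copy identical to Fau over 402 bases, was at 313 and 312 RPM against 10.9 and 10.1, and Fau, which encodes ribosomal protein S30, at 6.35 and 5.17 against 496 and 461. With the values of its similar pseudogenes added, the difference of Fau moved from -6.26 to -0.62. Rps27a, a fusion of ubiquitin and a ribosomal protein, was at 44.2 and 40.4 RPM against 958 and 836, and its copy Gm8430 at 192 and 214 against 0.712 and 0.665. Outside the ribosome, Eif2s3x, a subunit of the initiation factor eIF2, was at 78.5 and 77.7 against 231 and 213, and its identical copy Gm2223 at 276 and 272 against 4.63 and 3.22 RPM. With all similar pseudogenes of each gene added (for Rps27a also Rps27a-ps2), the difference of Eif2s3x turned from -1.50 to 0.64. That of Rps27a moved from -4.39 to -1.66 and that of Rps25 from -1.45 to -0.21, no longer called. These pairs were chosen after their values were seen.

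Coding genes differed in step with how many similar pseudogenes they have. The median difference was -0.37 for 8939 genes with none, -0.50 for 820 genes with 1, -0.75 for 281 with 2 to 4, -1.37 for 85 with 5 to 9 and -2.68 for 57 with 10 or more. With pseudogene values added to the parents, an alternative chosen after the data were seen, the last group's median was -2.14 and that of the ribosomal protein genes -1.26. Of the 82 genes called more than 16-fold lower in total RNA, 72 were protein coding. At least 1 similar pseudogene was found for 46 of these 72, against 12.2% of all tested coding genes. Of 79 of the 82 that kept a value, 62 stayed more than 16-fold lower after the addition, among them Gapdh (-6.22), Rps23 (-7.21), Tpt1 (-6.17) and Rps29 (-7.17, with no similar pseudogene found). How the authors counted reads that match several places is not stated in their notes, and its part was not tested.

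**Figure D3:**
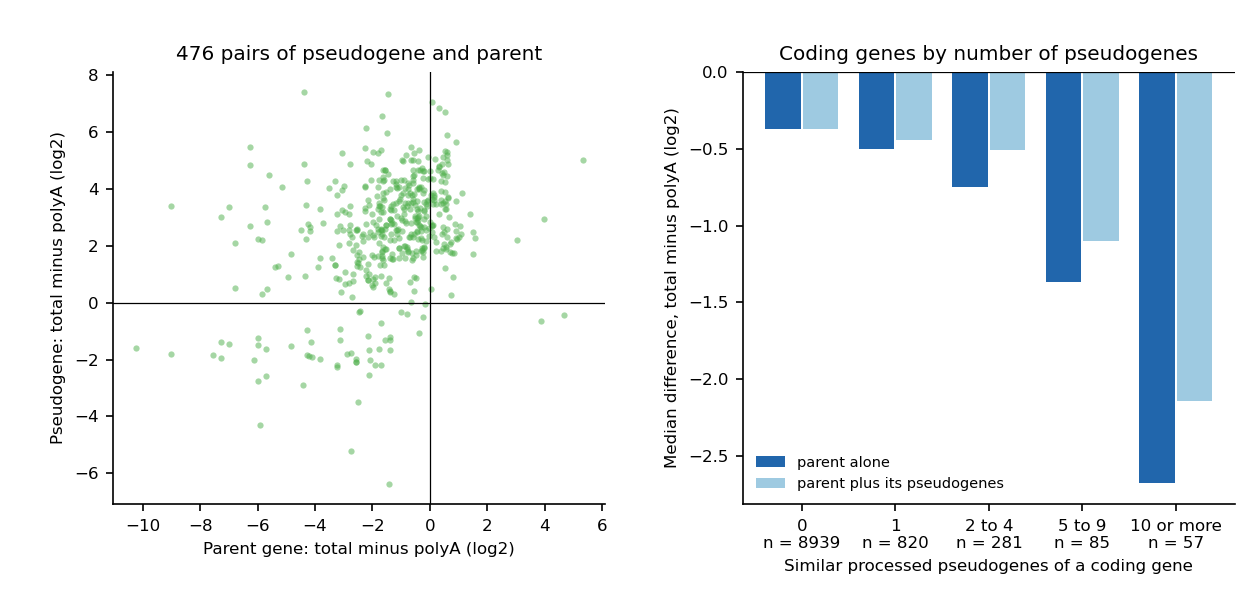
Left, difference of the processed pseudogene (y) against that of its parent gene (x) for 476 pairs, both on the log2(RPM + 0.5) scale. Right, median difference of coding genes by number of similar pseudogenes, alone (dark) and with the pseudogenes' values added (light), with medians of -2.68 and -2.14 in the last group.

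Genes at exactly 0 in total RNA often lay opposite another gene. In all, 15 genes were at 0 in both total RNA libraries and above 5 RPM in both polyA libraries. Of these, 3 were the Y-linked genes named above. A further 10, among them 6 coding genes, had 62.8% to 100% of their exon bases overlapped by exons of the other strand, against 0.815% of tested coding genes with more than 50% overlap. Pdcd2, a programmed cell death gene wholly overlapped by the TATA-binding protein gene Tbp, was at 64.3 and 59.2 RPM in polyA RNA, at least 293-fold above a floor of 3 reads per library. Tbp itself was counted in both, at 86.1 and 78.4 RPM in total RNA and 43.9 and 44.2 in polyA RNA. Med10, a Mediator subunit, was at 47 and 48.2 RPM, Sco2, a cytochrome oxidase assembly factor, at 38 and 32.4, and Ilk, the integrin-linked kinase, at 26.3 and 37.8, each against 0 and 0. The overlaps come from GENCODE, and the counts from another annotation. The GENCODE partners of Med10, Kctd12 and the pseudogene Gm15459 are not named among the counted genes. Whether these overlaps bore on the counts was not tested. The difference of Ilk was -6.00, or -4.97 with its 1 similar pseudogene added. Of the treated total RNA libraries, both were at 0 for Pdcd2, Med10 and Sco2. Over coding genes the median difference was -0.36 with no overlap and -1.21 for 84 genes with at least 50%. No source used here says whether both experiments were counted with the same strand setting. In the other direction, 14 genes were at 0 in both polyA libraries and above 5 RPM in both total RNA libraries, such as the scaRNA Scarna9 at 12.8 and 15.2 RPM.

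Coding genes also differed along GC content and transcript length. Among coding genes without overlap and without a similar pseudogene, the median difference was 0.99 for 107 genes under 38% GC, -0.33 for 880 genes of 47% to 50%, and -0.90 for 250 genes of 60% or more. In the lowest GC group 70.1% of genes were called higher and 9.35% lower, and in the highest 8% and 63.6%. The treated libraries gave 0.77 and -0.39 at these ends. By length, the median was 1.48 for 35 genes under 500 bases, 0.37 for 220 genes of 500 to 1000 bases, -0.32 for 1220 genes of 2000 to 3000 and -0.52 for 604 genes of 6000 to 9000. For 174 genes of 9000 bases or more the control median was -0.38. In the treated libraries the median was 1.05 under 500 bases, from 0.17 to -0.03 between 500 and 9000, and -0.39 at 9000 or more. GC and length were taken from 1 transcript per gene and are related to each other.

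**Figure D4:**
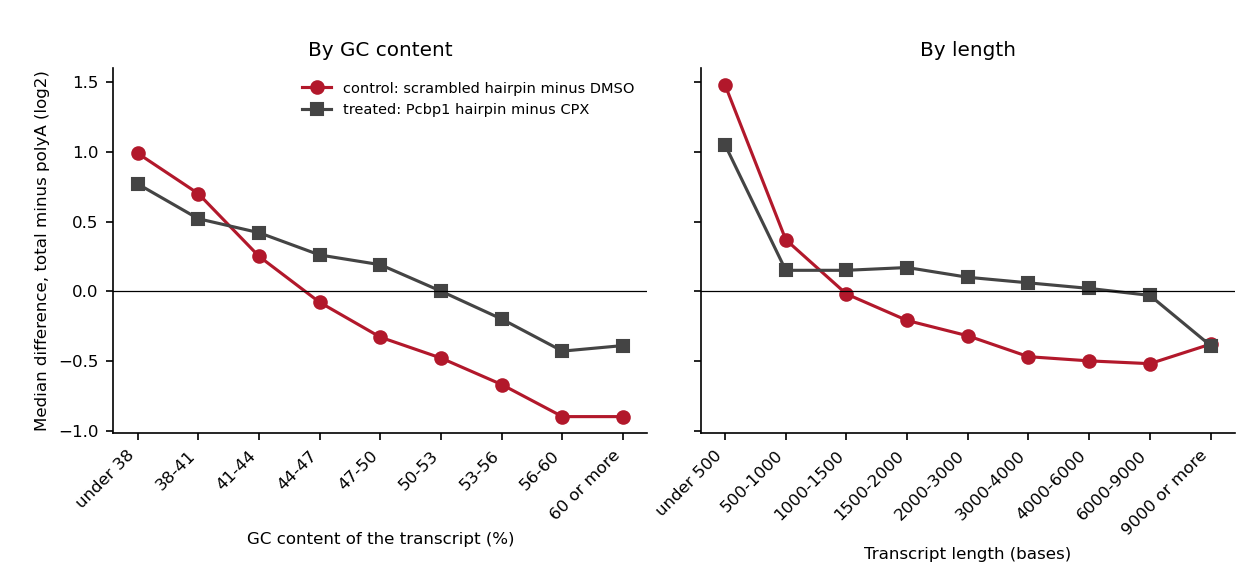
Median difference, total RNA minus polyA RNA, of coding genes without overlap or similar pseudogenes, by GC content (left) and by transcript length (right), for control (circles) and treated (squares) libraries. Medians fall from 0.99 to -0.90 across GC content in the control libraries and from 0.77 to -0.39 in the treated ones.

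Nuclear genes for mitochondrial proteins stood apart from those for cytosolic ribosomes. Of 78 tested genes named as mitochondrial ribosomal proteins, 30 were called higher and 22 lower, with a median of 0.13. Over all tested genes 26.3% were called higher and 42.6% lower. The list was drawn by name and includes pseudogenes, among them Mrpl23-ps1, Mrpl48-ps and Mrps36-ps1, with differences of 3.26, 3.53 and 2.09. Mrpl33 was at 141 and 148 RPM against 55 and 65.5, and Mrps34, which is overlapped over 63.4% of its exon bases by Mapk8ip3, at 0.635 and 1.75 against 38.9 and 43.2. Of 76 nuclear-encoded respiratory chain and ATP synthase genes, 28 were called higher and 31 lower. Cox7b, a cytochrome oxidase subunit, was at 316 and 314 RPM against 131 and 132. Atp5l, an ATP synthase subunit with 13 similar pseudogenes, was at 2.26 and 2.02 against 120 and 135, and its difference of -5.60 became -1.11 with these added. Among 34 proteasome genes 12 were called higher and 15 lower, and the median of -0.25 became 0.02 with TMM scaling. Psmc6, an ATPase of the cap, was higher at 431 and 425 against 185 and 167 RPM, and Psmd7, a lid subunit, lower at 57.9 and 50.7 against 305 and 281.

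Of 35 translation factor genes, 21 were called lower and 6 higher. The counts in this paragraph stand beside 42.6% of all tested genes called lower and 26.3% called higher. Their median of -0.89 was -0.49 with pseudogenes added to their parents. Tpt1, the translationally controlled tumour protein, was at 45.2 and 61.5 RPM against 4099 and 3604, and Pabpc1, the cytoplasmic polyA-binding protein, at 337 and 325 against 2312 and 2335 (difference -2.81, SE 0.10). Eif3m, a subunit of eIF3, was higher at 501 and 497 against 280 and 252 RPM. Of 19 SR proteins and CLK kinases, 16 were called lower and 2 higher, and the median of -0.99 was -0.73 with pseudogenes added. Srsf4, a splicing factor, was at 8.47 and 6.98 RPM against 108 and 111. The 2 higher were Clk1, at 208 and 189 against 100 and 102 RPM, and Clk4, at 81.9 and 75.4 against 39.2 and 38.8, kinases that phosphorylate SR proteins. In the treated libraries Clk1 and Clk4 were lower in total RNA, by -1.16 and -1.01. Among 258 zinc finger genes with the Zfp prefix, 108 were called higher and 70 lower, with a median of 0.26. This is the reverse of the balance over all genes in this scaling only. With TMM scaling all genes split to 3806 higher and 3950 lower, with a median of -0.02, and the median of the Zfp genes was 0.52. Of 2 further abundant mRNAs, Ncl (nucleolin) was at 641 and 657 RPM against 5837 and 4608 and Hsp90ab1, a chaperone, at 1057 and 1177 against 4601 and 4172.

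**Figure D5:**
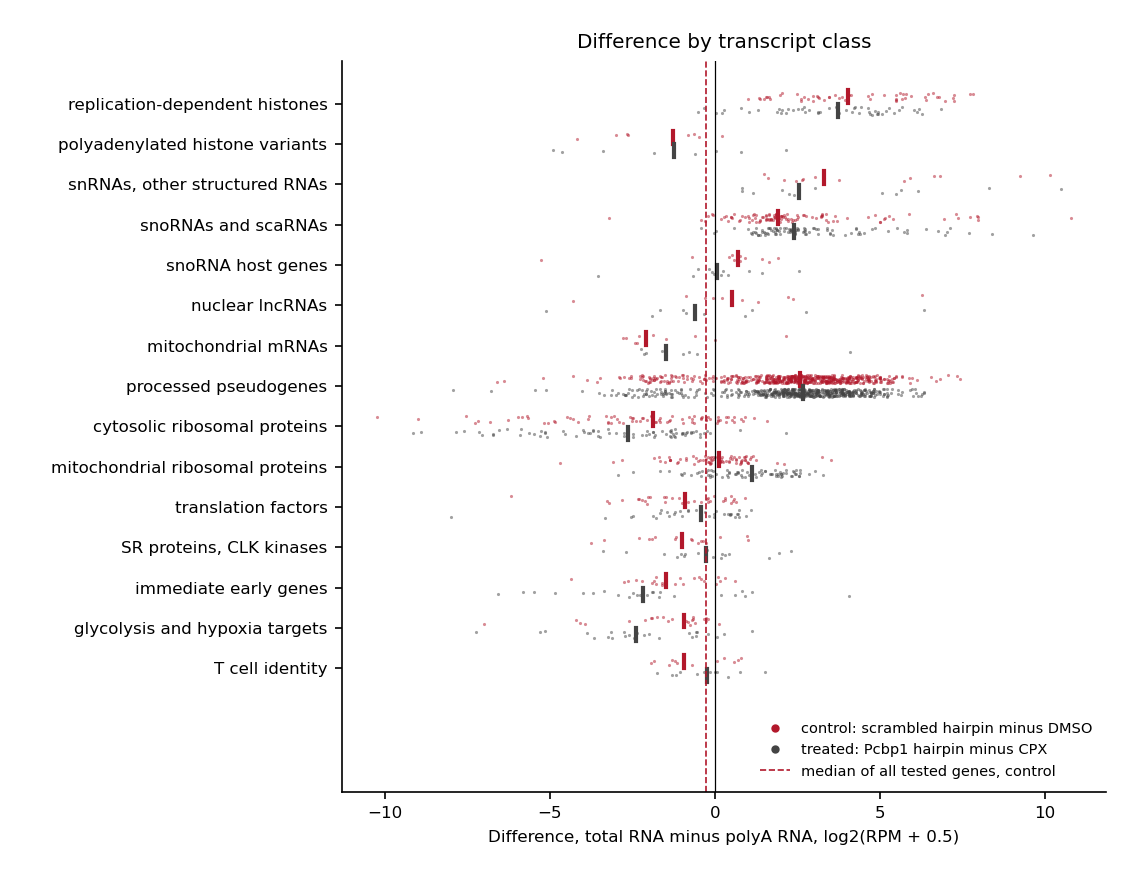
Difference, total RNA minus polyA RNA on the log2(RPM + 0.5) scale, of each control-tested member of 15 classes in the control comparison (red) and the treated comparison (dark grey), with bars at the medians and a dashed line at the control median of all genes, -0.28. The medians of replication-dependent histones are 4.03 and 3.74, of processed pseudogenes 2.57 and 2.66, and of cytosolic ribosomal proteins -1.86 and -2.63.

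Lists of genes of cell state are given beside the 42.6% of all tested genes called lower and the 26.3% called higher. Immediate early genes, switched on within minutes of stimulation, were called lower in 19 of 25 and higher in 0, with a median of -1.47. Without scrambled replicate 1 or 2 the count was 11 or 12. Fosl1, an AP-1 subunit, was at 1.98 and 2.79 RPM against 80.3 and 42.8, and Egr1, a zinc finger factor, at 16.2 and 15.4 against 82 and 147. Myc was at 364 and 449 against 1552 and 1263 RPM. Among glycolysis and hypoxia target genes 15 of 26 were called lower and 0 higher, with Pgk1 at 42.4 and 39.9 RPM against 671 and 888. Mitosis genes were near that share, with 12 of 28 called lower and 1 higher, and had Plk1, a mitotic kinase, at 2.4 and 1.54 RPM against 31.4 and 64.3. DNA replication genes were also near it, with 15 lower and 5 higher of 32, and had Mcm10 at 7.48 and 6.63 against 41.1 and 55.6 RPM and Orc6 at 79.5 and 70.5 against 26.5 and 30.5. Interferon-stimulated genes gave 10 lower and 3 higher of 19.

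Among Th1 genes 5 were called higher and 6 lower of 18 tested. The counts in this paragraph stand beside 26.3% of all tested genes called higher and 42.6% called lower. Ifng, the defining Th1 cytokine, had the highest mean level of any mRNA in each group, at 50383 and 40954 RPM in total RNA and 14026 and 23804 in polyA RNA, and was not called (difference 1.31, SE 0.62, adjusted p = 0.116). Fasl, a death ligand, was at 221 and 263 RPM against 67.9 and 40.1, and Ccl5, a chemokine, at 19 and 17.6 against 117 and 151. Of 26 T cell cytokine genes 5 were called higher and 8 lower. The DMSO libraries themselves were far apart in this list, with Il3 at 5932 and 557 RPM and Xcl1 at 1989 and 341, where the total RNA libraries had 7724 and 11046 and 6882 and 4861. Over all tested genes 504 differed by more than 2-fold between the DMSO libraries and 62 between the scrambled libraries. Of 15 genes of naive and memory T cells 3 were called higher and 7 lower. Of the 12 T cell identity genes 2 were called higher and 7 lower, with Cd4 at 42.8 and 55.4 against 137 and 226 RPM and Cd3d higher, at 347 and 339 against 179 and 251.

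Of 8 markers of CD8 T cells and NK cells, 4 reached 1 RPM and were tested. Of these, 3 were called higher in total RNA, where 26.3% of all tested genes were. In each group 2 of the 8 were at 0, and the list summed to 211 and 71.1 RPM in total RNA and 17.3 and 19 in polyA RNA. Cd8a, the CD8 alpha chain, was at 63.8 and 6.49 RPM against 1.93 and 2, and Klrk1, the receptor NKG2D, at 67.2 and 26.5 against 1.22 and 4.19. The call of Cd8a was lost in 6 alternatives, among them without either DMSO library, and that of Klrk1 without scrambled replicate 1. The first replicate was the higher one with the Pcbp1 hairpin also, with Cd8a at 67.1 and 6.92 RPM. More such cells and more RNA per cell cannot be told apart in bulk RNA. Of 8 B cell markers 1 reached 1 RPM, and the list summed to at most 2.03 RPM in a library. The macrophage list summed to 2.26 to 4.76 RPM, no neutrophil or erythroid marker reached 1 RPM, and 1 of 8 fibroblast markers did. The dendritic list summed to 17.4 and 16.4 RPM in total RNA and 2.95 and 3.27 in polyA RNA, most of it from Xcr1, the receptor of the chemokine XCL1, at 11.6 and 11.3 against 0 and 0.0512, while 2 of its 7 members were at 0 in both total RNA libraries. The part of these cells in the differences was not tested.

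The treated libraries gave the same comparison a second time, with the Pcbp1 hairpin and CPX added. Of 12335 genes tested there, 62.1% were called, 31.3% higher and 30.9% lower in total RNA, and the median was 0.02. Over 11318 genes tested in both, the differences correlated across genes at a Pearson r of 0.63, a description over genes, which are not independent replicates. Of 2906 genes higher in the control comparison, 1844 were higher and 211 lower in the treated one. Of 4878 lower genes, 1943 were lower and 964 higher. There 48 of 53 replication-dependent histones, 15 of 15 structured RNAs, 93 of 98 snoRNAs and scaRNAs, and 478 of 571 processed pseudogenes were called higher, where 31.3% of all tested genes were. The limit of the filter holds for these counts too, as members could pass it through total RNA alone. Cytosolic ribosomal protein genes were called lower in 73 of 80. SR proteins and CLK kinases gave 3 higher and 7 lower of 19, against 2 and 16 in control cells.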

How the data were processed

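RNA was measured in 2 libraries per group. Per the submitters' processing notes cutadapt, STAR, HTSeq and DESeq were used with build mm9. The deposited table holds raw counts per gene for the hairpin libraries and, for the DMSO and CPX libraries, a rescaled count treated as a score. The planned unit was RPM, so RPM was computed here from the deposited values without the constant line. Labels after that line were displaced by 1 gene and were set right with the mean signal in the authors' deposited DESeq2 tables, leaving 33879 genes. The log2 fold changes, scores and p-values in the authors' deposited tables were not used. Genes reaching 1 RPM in 2 or more of the 4 libraries were tested with limma 3.58.1 (R 4.3.3, trended variance, log2(RPM + 0.5), Benjamini-Hochberg adjustment), checked on simulated data. Mouse GENCODE release M21 on GRCm38 gave gene types and sequences for 11269 of 11544 tested genes, and pseudogenes were aligned with minimap2. Named genes were all members of lists with at most 12 tested, else the 6 most abundant and the 6 with the largest differences, the 12 largest called differences each way without overlap at a mean of 20 RPM or more, the 12 most abundant per group, markers reaching 1 RPM, and Pcbp1. Outside this rule, Clk1, Clk4, Eif3m, Rpl39, Rps27l, Scarna9, Snora73b, U6, U11, U12, U4atac, U6atac and Telomerase-vert were chosen after their values were seen. The members and lists were chosen with earlier results of these data known. Replicate deviations correlated at -0.11 between the groups, so the shared numbers were not taken as pairs. Alternatives are given at the end.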

Additional observations from a re-analysis of the deposited data

Results flagged for a closer look

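For 10 named genes every control library pair put total RNA on one side of polyA RNA and every treated pair put it on the other. The difference between the 2 comparisons was not tested. Values are total minus polyA on the log2(RPM + 0.5) scale. Myc, a growth-promoting transcription factor, was -1.79 in control and 4.05 in treated cells, where it lay at 781 and 917 RPM with the Pcbp1 hairpin and 56.9 and 45 with CPX. The T cell receptor chain gene Cd3d was 0.69 in control and -1.18 in treated cells, and Cd3e was -1.92 and 0.41. The splicing kinase genes Clk1 and Clk4 were 0.97 and 1.00 in control cells, and -1.16 and -1.01 in treated cells. Among ribosomal protein genes Rpl39 was 0.91 and -0.87, and Rps3 was 0.80 and -0.25. Snhg1 was 1.65 and -0.51, Slbp 0.32 and -0.45, and H2afx -0.62 and 0.80. Groups of 2 libraries are too small for a search for single outlying samples.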

How the results depend on the processing

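Of 113 named genes that were called, 95 kept their direction and call in every alternative, 17 lost the call in some and 1 reversed. Eif2s3x turned to 0.64 with pseudogenes added to their parents, and Ifng, not called, turned to -0.63 with quantile normalization. The cause was not tested for Ifng. Without a filter on low values, which tests more genes, 4704 genes and 844 processed pseudogenes were called higher. With a filter at 5 RPM, which tests fewer, 2190 genes were called higher and 4529 lower, so 32.6% of calls were higher. There 8 of 8 structured RNAs, 48 of 50 snoRNAs and scaRNAs and 314 of 333 processed pseudogenes were called higher. Of 7 mitochondrial mRNAs 5 were called lower. Leaving out 1 library gave 1747 to 3357 genes higher, 2923 to 5429 lower and 11 to 20 immediate early genes lower, and the lone sample was then assumed to vary like the others. With replicate number as a block, 2851 genes were called higher and 4718 lower. The numbers did not pair the samples, and the crossed pairing, added after the data were seen, gave 3000 and 4906. Genes at 0 lie under a floor of 3 units, 0.153 to 0.212 RPM by library.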
